A study of Mus musculus with 5 samples.

Results

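The genes described here are 8 markers of border-associated macrophages: Mrc1, Lyve1, Cd163, Pf4, Ms4a7, Cbr2, Folr2 and Siglec1. They were taken by gene symbol, and all 8 were found among the 23420 genes of the deposited table. The samples were 5 polyA RNA sequencing libraries of mouse forebrain cells at postnatal day 8, sorted as CD11b-positive and negative for propidium iodide, which stains dead cells. The 3 libraries labelled knockout came from pups whose 1 copy of Cx3cr1 held a Cre recombinase that tamoxifen switches on (Cx3cr1-CreERT2/+) and 2 floxed copies of Stat3 (Stat3 fl/fl), given tamoxifen daily from postnatal day 1 to 3. The 2 control libraries came from Stat3 fl/fl littermates without Cre, so both groups carried floxed Stat3, and the knockout group alone carried Cre with its disrupted Cx3cr1 copy. Tamoxifen is stated for the Cre-bearing pups, and the sources used here do not say whether the controls had it. Each library was a pool of 2 to 4 pups of 1 genotype and both sexes. The comparison asked how these markers stood after deletion of Stat3, which encodes a transcription factor downstream of cytokine receptors, in cells that express Cx3cr1.

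Border-associated macrophages live in the meninges, around blood vessels and in the choroid plexus, at the edges of the brain, whereas microglia live in its tissue. Both carry CD11b and Cx3cr1, so a sort on CD11b takes both, and the Cre allele can act in both. The markers used to tell border macrophages from microglia are largely endocytic and scavenger receptors that bind sugars, haemoglobin complexes, hyaluronan, folate or sialic acid. A bulk library gives the marker RNA of the whole sort, so fewer border macrophages and less marker RNA per cell cannot be told apart.

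Values are log2 expression centred for each gene on a value outside the table. They can be compared between libraries for 1 gene, but not between genes. The number of reads per library is unknown. A 0-read value, the value a gene takes in a library without reads, was recognised from its fixed pattern over the libraries. Recognition needed at least 3 libraries at it, or both controls with every knockout library higher, so 1 library alone there was missed. Over the 9355 tested genes the library medians were 0.24, 0.21 and 0.18 in knockout replicates 1 to 3, and -0.16 and 0.09 in control replicates 1 and 2. The median difference of all tested genes was 0.13, so a difference near that size is the background. Stat3 itself had values of 0.96, 0.07 and 0.24 under the knockout label, no lower as a group than the controls (0.08 and 0.45), so the directions below follow the labels, which that gene does not bear out. Its log2 difference was 0.17 (SE 0.42, limma adjusted p = 0.949), and it changed sign when knockout replicate 1 (-0.10) or control replicate 1 (-0.02) was left out. A count over the whole gene would also take reads from exons outside the floxed part, and how reads were counted is not given. Itgam, which encodes CD11b, had values of 3.26, 3.29 and 2.68 against 3.18 and 3.21. Of 15 general macrophage genes, none of them recognised at the 0-read value, 9 were higher and 6 lower (median 0.25). Lyz2, the lysozyme gene of myeloid cells, differed most, at 3.47, 2.99 and 2.99 against -0.80 and 1.81, a log2 difference of 2.64 that was 1.34 without control replicate 1. Fcgr1, an antibody receptor gene, had one of 1.28, which was 0.82 without that library. Lyz2 and Fcgr1 were chosen after their values were seen, and none of the 15 passed (limma adjusted p = 0.616 for both).

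The promoters of 6 of the 8 members were matched in RefSeq's GRCm38.p6 table (all but Lyve1 and Siglec1), in 8 windows of 300 bases (250 before and 50 after a start). Printed here are the stretches before the start of Mrc1, Cd163 and Pf4. Mrc1 was not recognised at the 0-read value in any library, and the 3 knockout values of Cd163 and of Pf4 all lay above both controls. Capitals mark matches, on either strand, to the PU.1 core GAGGAA in Mrc1 and Pf4, and to the interferon regulatory factor core AANNGAAA in Cd163. Each sequence is on the forward strand and stops before the first annotated base of its gene.
Mrc1, chr2:14229164-14229391: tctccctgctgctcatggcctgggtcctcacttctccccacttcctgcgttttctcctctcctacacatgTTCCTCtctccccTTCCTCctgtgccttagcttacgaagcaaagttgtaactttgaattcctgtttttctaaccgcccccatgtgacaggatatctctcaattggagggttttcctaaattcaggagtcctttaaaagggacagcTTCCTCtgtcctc
Cd163, chr6:124304401-124304650: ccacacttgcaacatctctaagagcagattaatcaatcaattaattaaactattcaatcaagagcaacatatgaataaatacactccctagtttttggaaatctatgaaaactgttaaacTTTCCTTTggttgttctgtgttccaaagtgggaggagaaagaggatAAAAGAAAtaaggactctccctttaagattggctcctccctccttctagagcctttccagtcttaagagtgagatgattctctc
Pf4, chr5:90772185-90772434: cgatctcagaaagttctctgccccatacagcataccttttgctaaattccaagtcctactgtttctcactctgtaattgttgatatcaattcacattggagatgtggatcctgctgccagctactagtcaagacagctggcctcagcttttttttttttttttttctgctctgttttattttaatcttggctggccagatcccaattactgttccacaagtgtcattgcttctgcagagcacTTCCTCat
The STAT palindrome TTCNNNGAA was in 0 of the 8 windows of the members, against 8.3% of 32851 RefSeq promoter windows of the same length. The PU.1 core, of a factor that macrophages need to form, was in 4 of the 8 windows (Mrc1, Pf4, Cbr2 and Ms4a7), against 28.3% of all windows. The interferon regulatory factor core was in 3 (Cd163, Folr2 and Ms4a7), against 23.9%, and the Maf half-site TGCTGAC in 1 (Cbr2), against 4.67%. All 4 motifs were searched on both strands, and overlapping matches were allowed. These matches describe letters in a short window and say nothing about binding.

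Across the members, 0 of the 7 that could be tested passed the threshold, an adjusted p under 0.05 in limma, and 0% of the 9355 tested genes did. Without adjustment, limma gave p under 0.05 for 723 genes, 525 higher and 198 lower. At an unadjusted p under 0.05 with a higher value in the libraries labelled knockout, limma had 1 member, Pf4, against 5.61% of tested genes. Positive differences were found in 5 of the 7 tested members, against 59.8% of tested genes, and negative ones in Mrc1 and Folr2. Every knockout library lay above both controls, with ties at the 0-read value left out, in 2 members (Cd163 and Pf4) against 13.9% of tested genes. The opposite order was found in 0 members against 7.1%. Both controls lay at the 0-read value in 3 tested members (Lyve1, Pf4 and Cbr2) against 15.6% of tested genes, and in Ms4a7, which was not tested. Lyve1 and Cbr2 entered the test only through knockout libraries. Pf4 was recognised by its control pair, a rule that asks for every knockout library to lie higher. These 3 thus had to stand higher there, so counts over the tested members describe them and no more. The median log2 difference was 0.71 over the 7 tested members and 0.64 over all 8, and over the 7 it was 0.46 after each library had been centred on its median.

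**Figure D1:**
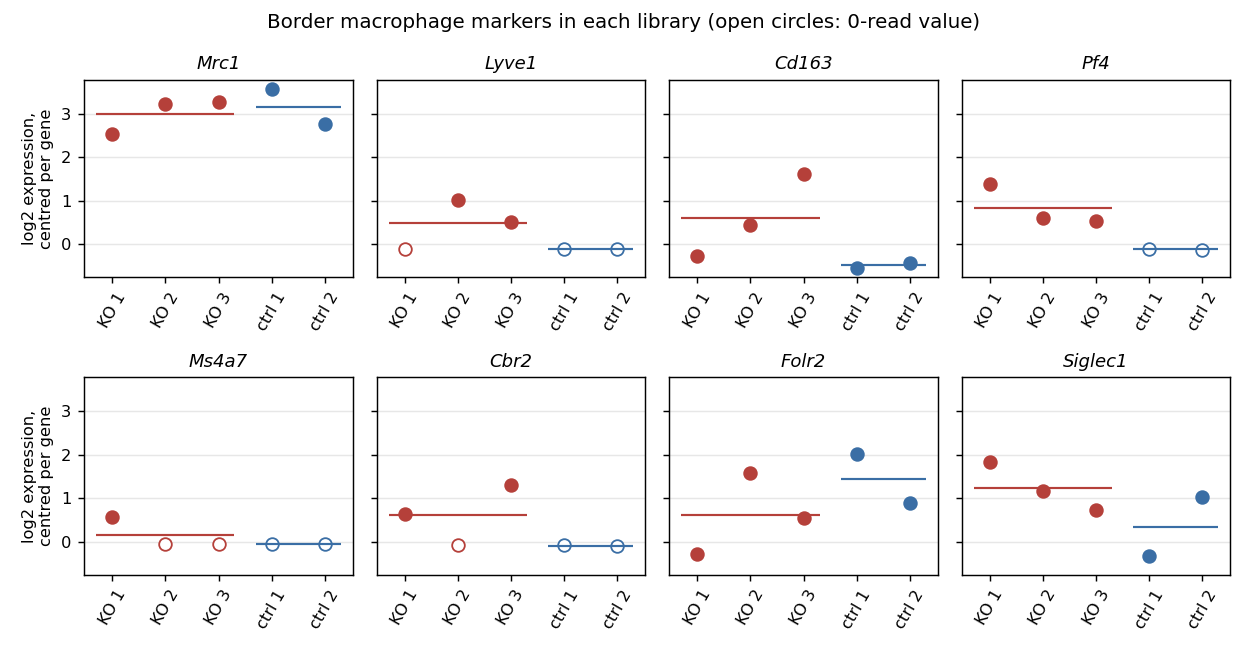
Log2 expression, centred per gene, of the 8 members in each library (KO, knockout; ctrl, control), 1 point per library, with group means as lines and open circles at the 0-read value. Mrc1 lies between 2.52 and 3.57 in all libraries, while Lyve1, Pf4, Ms4a7 and Cbr2 have open circles in both controls.

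Mrc1 encodes the macrophage mannose receptor CD206, which takes up glycoproteins and is the marker most used to separate border macrophages from microglia. The gene lies on chromosome 2 from 14229392 to 14332057 on the forward strand (GRCm38, GENCODE vM21, as are all gene positions here). It stood at 2.52, 3.21 and 3.27 in knockout replicates 1 to 3 and at 3.57 and 2.75 in control replicates 1 and 2. The groups overlapped: control replicate 1 was the highest of the 5 libraries and knockout replicate 1 the lowest. Mrc1 averaged 3.00 ± 0.42 (SD, n = 3) against 3.16 ± 0.58 (SD, n = 2). The log2 difference of -0.16 had an SE of 0.44 and 95% bounds of -1.16 and 0.84 (limma adjusted p = 0.96). This difference was smaller than the spread within either group. Its sign rested on single libraries: leaving out control replicate 1 gave 0.25, leaving out knockout replicate 1 gave 0.08, and leaving out control replicate 2 gave -0.57. Mrc1 was among the 4 members (with Cd163, Folr2 and Siglec1) not recognised at the 0-read value in any library, though a single library there would be missed.

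Folr2 encodes folate receptor beta, a surface protein of tissue macrophages that binds folate. It lies on the reverse strand of chromosome 7 from 101839988 to 101857194. Its values were -0.27, 1.57 and 0.54 in the libraries labelled knockout and 2.02 and 0.89 in the controls. As in Mrc1, control replicate 1 was highest and knockout replicate 1 lowest, and the groups overlapped. Folr2 averaged 0.61 ± 0.93 (SD, n = 3) against 1.45 ± 0.80 (SD, n = 2). The log2 difference of -0.84 (SE 0.59, 95% interval from -2.19 to 0.51) did not pass (limma adjusted p = 0.774). Leaving out control replicate 1 or knockout replicate 1 brought it nearer to 0 (-0.27 and -0.39), and leaving out knockout replicate 2 or control replicate 2 took it further away (-1.32 and -1.40).

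Cd163 encodes the receptor that clears complexes of haemoglobin and haptoglobin. The gene lies on chromosome 6 from 124304656 to 124330527, on the forward strand. Its values were -0.28, 0.43 and 1.61 in knockout replicates 1 to 3 and -0.55 and -0.43 in the controls. All 3 knockout values lay above both controls, but knockout replicate 1 stood only a little above them and knockout replicate 3 far above. Cd163 averaged 0.59 ± 0.95 (SD, n = 3) against -0.49 ± 0.08 (SD, n = 2). Of the tested members it had the largest log2 difference, 1.08 (SE 0.55, 95% interval from -0.17 to 2.32), and it did not pass (limma adjusted p = 0.702). Without knockout replicate 3 the difference was 0.57.

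Siglec1 encodes CD169, or sialoadhesin, which binds sialic acid and is known to be induced by interferon. It lies on the reverse strand of chromosome 2 from 131069220 to 131086765. Its values were 1.83, 1.16 and 0.73 in the libraries labelled knockout and -0.32 and 1.03 in the controls. Control replicate 2 lay above knockout replicate 3, so the groups overlapped, and control replicate 1 stood apart at the bottom. Siglec1 averaged 1.24 ± 0.56 (SD, n = 3) against 0.35 ± 0.96 (SD, n = 2), with a log2 difference of 0.89 (SE 0.52, 95% interval from -0.30 to 2.07, limma adjusted p = 0.751). Both controls moved it: leaving out control replicate 1 gave 0.21, and leaving out control replicate 2 gave 1.56. It was 0.59 without knockout replicate 1. Among 13 tested genes of the interferon response, all had positive differences (against 59.8% of tested genes), from 0.20 to 1.82. In 7 of them, Ifit2 and Oasl2 included, both controls were recognised at the 0-read value, so these could only be positive. The other 6 were positive too. Ifit2, whose protein binds RNA and is induced by interferon, stood at 1.35, 1.02 and 0.88 against -0.71 and -0.77, and Oasl2, of the oligoadenylate synthetase family, at 0.79, 1.39 and 2.06 against -0.36 and -0.40. None of the 13 passed, and the part of these genes in the Siglec1 values was not tested.

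Lyve1 encodes a hyaluronan receptor found on perivascular and meningeal macrophages and on lymphatic endothelium. It lies on the reverse strand of chromosome 7 from 110850607 to 110863239. Knockout replicates 2 and 3 stood at 1.01 and 0.52, while knockout replicate 1 and both controls lay at the 0-read value (-0.10, -0.10 and -0.11). Only these 2 knockout libraries were thus above it. The log2 difference was 0.58 (SE 0.43, 95% interval from -0.40 to 1.56, limma adjusted p = 0.774), with means of 0.48 ± 0.56 (SD, n = 3) and -0.10 ± 0.01 (SD, n = 2). Leaving out knockout replicate 2 gave 0.31, and leaving out knockout replicate 1 gave 0.87. Median centring of the libraries gave 0.33 and quantile normalization 0.38. Of 5 markers of lymphatic endothelium, 4 lay at the 0-read value in all libraries, among them the receptor gene Flt4. The other, the transcription factor gene Prox1, went the opposite way to Lyve1, with -0.22, -0.22 and -0.24 in the libraries labelled knockout, all 3 at the 0-read value, and 0.44 and 1.07 in the controls.

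Pf4 encodes the chemokine CXCL4, which border macrophages express and platelets store in their granules. The gene is short and lies on chromosome 5 from 90772435 to 90773383, on the forward strand. In knockout replicates 1 to 3 it stood at 1.39, 0.59 and 0.53, against -0.12 and -0.13 in the controls. All 3 knockout libraries lay above both controls. The controls differed by 0.0126, a gap of the size that 2 libraries without reads have, which does not show that reads were absent. Pf4 averaged 0.84 ± 0.48 (SD, n = 3) against -0.12 ± 0.01 (SD, n = 2), and the log2 difference was 0.96 (SE 0.41, 95% interval from 0.02 to 1.90). Pf4 had the smallest p of the members, 0.0459 before adjustment, and did not pass (limma adjusted p = 0.64). Without each library in turn the difference ran from 0.68 to 1.11. Leaving out a control could hardly move it (0.97 and 0.95), since both lay so close together. The rule that placed them at the 0-read value also fixed its sign. Of 12 platelet markers 9 lay at the 0-read value in all libraries, among them Ppbp, a platelet chemokine gene listed at exactly 0, and Itga2b, a platelet integrin gene. The 3 tested were 1 higher and 2 lower in the libraries labelled knockout, from -0.97 to 0.75.

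Cbr2 encodes a carbonyl reductase, an enzyme that reduces aldehydes and ketones with NADPH. It lies on the reverse strand of chromosome 11 from 120729489 to 120732114. Knockout replicates 1 and 3 stood at 0.63 and 1.31, and knockout replicate 2 lay at the 0-read value with both controls (-0.08, against -0.08 and -0.10). The log2 difference was 0.71 (SE 0.47, 95% interval from -0.36 to 1.77, limma adjusted p = 0.772), with means of 0.62 ± 0.70 (SD, n = 3) and -0.09 ± 0.01 (SD, n = 2). Leaving out knockout replicate 3 gave 0.36, and leaving out knockout replicate 2 gave 1.06. Median centring gave 0.46. Cbr2 and Lyve1 were thus each above the 0-read value in 2 knockout libraries, but not in the same 2.

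Ms4a7 belongs to the family of membrane proteins that span the membrane 4 times and is expressed by border macrophages more than by microglia at rest. It lies on the reverse strand of chromosome 19 from 11321039 to 11336146. Knockout replicate 1 stood at 0.58, and the other 4 libraries lay at the 0-read value, from -0.06 to -0.05. For that reason Ms4a7 did not pass the filter on low values. Its mean difference of 0.21 came from 1 library and was 0.00 without it. In the fit without that filter its limma adjusted p was 0.973.

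The members with libraries at the 0-read value left it by steps of 0.61 to 1.51 in the other libraries. In 573 genes knockout replicate 1 was the only library above it, and 413 of these lay between 0.4 and 0.7 above, 5 between 0.7 and 0.8, and 109 between 0.9 and 1.2. Such separate clusters are what whole numbers of reads give, with the lowest cluster from the fewest reads. Ms4a7 lay 0.63 above its 0-read value in that library, within the lowest cluster, and Cbr2 lay 0.71 above it there. In knockout replicate 3, where 641 genes were alone above that value with a median distance of 0.586, Lyve1 lay 0.61 above, Pf4 0.65 and Cbr2 1.39. In knockout replicate 2, with 614 genes and a median of 0.623, Pf4 lay 0.71 above and Lyve1 1.11. Pf4 in knockout replicate 1 lay 1.51 above. The distances shift with a gene's mean, so they were not turned into read numbers. The part of read sampling in which libraries lay above that value was not tested.

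**Figure D2:**
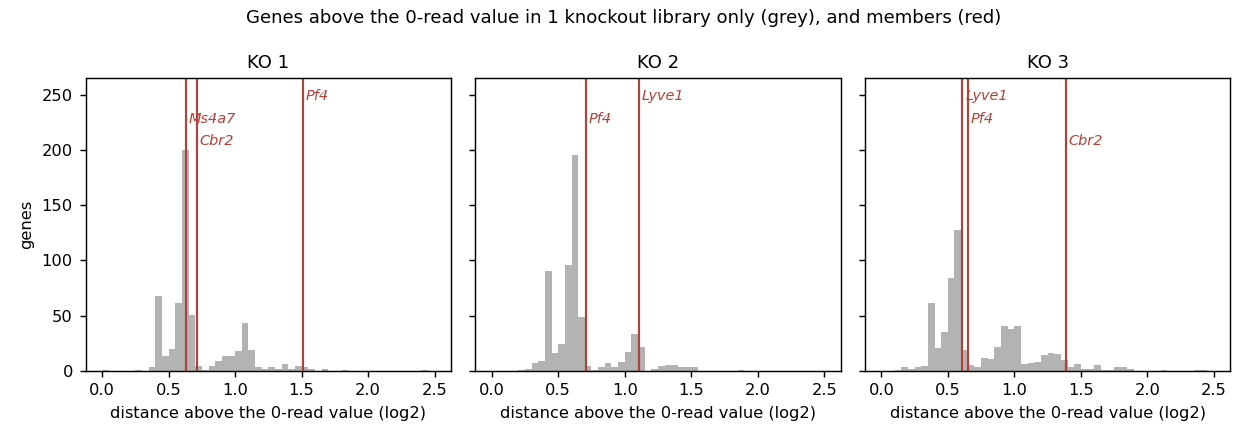
Distance above the 0-read value (log2) in knockout replicates 1 to 3: grey bars count genes for which that library alone lies above it, and red lines mark members. The grey genes form clusters, and Ms4a7 in knockout replicate 1 lies at 0.63, in the lowest one.

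The markers did not peak in 1 library. Pf4, Ms4a7 and Siglec1 were highest in knockout replicate 1, Lyve1 in knockout replicate 2, Cd163 and Cbr2 in knockout replicate 3, and Mrc1 and Folr2 in control replicate 1. Control replicate 2 was highest for 0 members and lowest for 4, which were the 4 whose controls both lay at the 0-read value. In the pattern that marks this value, control replicate 2 is always the lowest, so its place in those 4 was fixed. The median over the 8 members was 0.60, 0.80 and 0.64 in knockout replicates 1 to 3 and -0.09 and -0.08 in the controls. Those medians mix genes whose centres differ and are given only to show the libraries side by side. Among the 1874 tested genes recognised at the 0-read value in 3 libraries, control replicates 1 and 2 were among those 3 in 1528 and 1243. Each library labelled knockout was among them in 937 to 965. The 507 tested genes recognised by their control pair alone are not in these counts. The part of this imbalance in the member values was not tested.

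**Figure D3:**
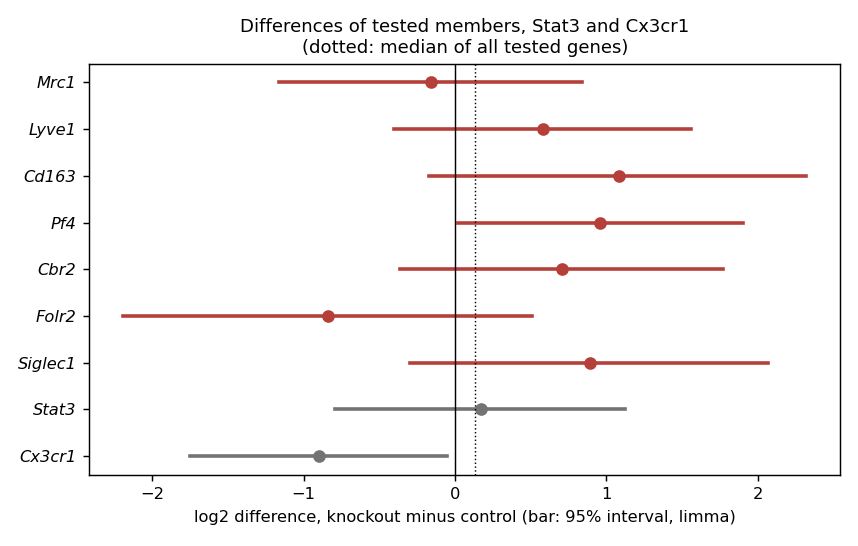
Log2 difference, knockout minus control, of the 7 tested members (red), Stat3 and Cx3cr1 (grey), with limma's 95% intervals as bars and the median of all tested genes, 0.13, dotted. The Pf4 interval runs from 0.02 to 1.90, but its sign, like those of Lyve1 and Cbr2, was fixed because both controls were recognised at the 0-read value. No adjusted p passed.

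Cx3cr1, the fractalkine receptor gene that holds the Cre insertion, was at 3.36, 3.34 and 3.00 in the 3 Cre-bearing pools against 4.32 and 3.95 without Cre, with no overlap. Its log2 difference was -0.90 (SE 0.37, limma adjusted p = 0.639). Of the tested members whose sign was not fixed by the 0-read value, 2 had positive and 2 negative differences. Cre, the disrupted Cx3cr1 copy, the intended deletion of Stat3 and, if the controls had none, tamoxifen came together in this design and cannot be told apart.

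**Figure D4:**
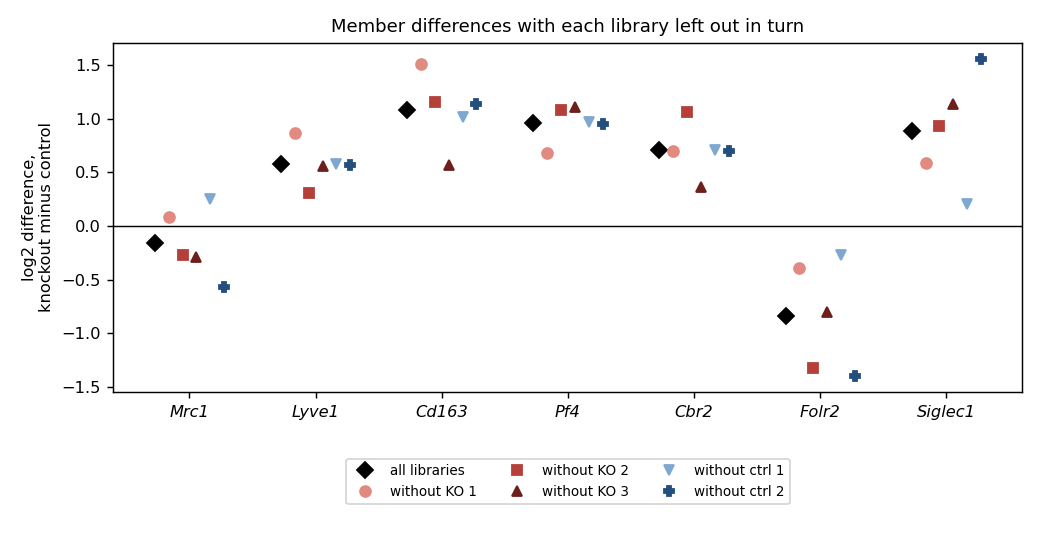
Log2 difference of the 7 tested members with all libraries (black) and with each library left out in turn. Pf4, whose controls both lie at the 0-read value, ranges from 0.68 to 1.11, Siglec1 from 0.21 to 1.56, and Mrc1 lies on both sides of 0.

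A wider list of 37 other border macrophage genes was read beside the members, and the difference between both lists was not tested. Of the 36 found in the table, 8 lay at the 0-read value in all libraries and 5 more in 4 of them, including the lectin gene Cd209f and the phosphatidylserine receptor gene Timd4. Of the 23 tested, 13 had positive and 10 negative differences, with a median of 0.30 and 0 past the threshold. With the 3 genes left out whose controls both lay at the 0-read value, 10 were positive and 10 negative, and the members left out in the same way had 2 positive (Cd163 and Siglec1) and 2 negative (Mrc1 and Folr2). Ccr1, a chemokine receptor gene, stood at 0.58, 0.58 and 1.25 against -0.11 and -0.12, a log2 difference of 0.92. Lilra5, a leukocyte immunoglobulin-like receptor gene, stood at -0.17, 1.03 and -0.19 against 1.03 and 1.69, a log2 difference of -1.14. Ccr1 was recognised by its control pair, a rule that asks for every knockout library to lie higher, so its groups could not overlap. For Lilra5, knockout replicate 2 and control replicate 1 were level at this rounding, and the other 2 knockout libraries lay below both controls. Maf, a transcription factor gene of border macrophages, stood at 2.76, 2.30 and 2.61 against 2.71 and 3.09, a log2 difference of -0.34 that became -0.15 when control replicate 2 was left out and -0.53 when control replicate 1 was. The scavenger receptor gene Stab1 stood at 2.54, 2.39 and 2.78 against 1.70 and 2.60, and its difference of 0.42 turned to -0.03 without control replicate 1. Cd209f, Timd4, Maf and Stab1 were chosen after their values were seen.

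Genes of class II antigen presentation, which a part of the border macrophages express, had positive differences in 6 of 7 tested genes, against 59.8% of all tested genes. Their median was 0.89, and 0 passed the threshold. H2-DMb1 alone of them had both controls at the 0-read value. H2-DMb1, a subunit of the peptide-loading chaperone, stood at 1.31, 0.96 and 1.44 against -0.20 and -0.23. Its partner H2-DMa stood at 0.85, 1.17 and 1.98 against 0.38 and -0.35. Reads of these genes may be shared with paralogs, so their values are uncertain. In both genes the knockout libraries lay above both controls, against 13.9% of tested genes with ties at the 0-read value left out. For H2-DMb1 that order was fixed by the rule for its control pair. H2-DMb1 and H2-DMa were the only 2 of the 7 with it. The groups overlapped in the others, with log2 differences of 0.06 for H2-Aa, 0.09 for Ciita, -0.22 for H2-Eb1, 0.89 for H2-Ab1 and 1.60 for Cd74.

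Genes of the pathways the members belong to were mixed in direction, and 0 passed. Positive differences were found in 59.8% of all tested genes, the share to set beside the counts here and in the next paragraph. The counts include genes whose controls both lay at the 0-read value and which could only come out higher: 2 lectins and scavenger receptors, 3 genes each of haem and iron handling and of folate, 2 each of the MS4A and Siglec families, and 1 each of the CXC and the IL-10, IL-4 and glucocorticoid lists. Marco, Slc11a2 and Mthfd2, named below, are among these genes. Among endocytic lectins and scavenger receptors 7 of 11 tested were higher (median 0.11). Cd68, a lysosomal glycoprotein gene, had a log2 difference of 0.77, and Marco, a scavenger receptor gene, of 0.90, which was 0.56 without knockout replicate 1. Genes of haem and iron handling, the pathway downstream of CD163, were higher in 10 of 14 (median 0.43). Ncoa4, which delivers ferritin for breakdown, went the other way, at 0.18, -0.22 and -0.84 against 1.61 and 0.76 with a log2 difference of -1.48, while the iron transporter gene Slc11a2 had a log2 difference of 1.17. In folate uptake and use 8 of 11 were higher (median 0.55), with the serine hydroxymethyltransferase gene Shmt2 at 1.31 and Mthfd2, another mitochondrial folate enzyme gene, at 0.72 (1.08 without knockout replicate 3).

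Close relatives of the members also differed among themselves. Among the genes given here, Ms4a6b, Siglece, Cxcl9 and Nr3c1 had both controls recognised at the 0-read value, so they could only come out higher. In the MS4A family 3 of 7 tested were higher and 4 lower (median -0.11): Ms4a6b had a log2 difference of 0.93 and its near copy Ms4a6c of -1.11, and reads of such similar genes can be split wrongly. The Ms4a6c difference was -0.42 when control replicate 1 was left out and -1.80 when control replicate 2 was. In the Siglec family 3 of 6 were higher (median 0.04). Siglece, an inhibitory receptor gene, stood at 0.55, 1.38 and 1.40 against -0.15 and -0.17. Siglech, a microglia marker, stood at 1.87, 2.13 and 1.21 against 2.60 and 2.71, so each knockout library lay below both controls. Of 12 other CXC chemokine genes and the receptor gene Cxcr3, 3 were tested, and 8 of these 13, Cxcr3 included, lay at the 0-read value in all libraries. Cxcl16, a membrane-bound chemokine gene, had a log2 difference of 1.12 and Cxcl9 of 0.39, which was 0.14 after median centring. Among carbonyl and sugar reductases 3 of 5 tested were higher (median 0.27), with Dhrs4 at 0.74 and Dcxr at -0.49. Leaving out knockout replicate 3 gave 0.35 and -0.22 for these genes, and leaving out knockout replicate 1 gave -0.77 for Dcxr. For IL-10, IL-4 and glucocorticoid signalling, which can induce Cd163 and Mrc1 in macrophages, 9 of 13 were higher (median 0.08). Socs3, a feedback inhibitor and STAT3 target gene, had a log2 difference of -0.94, with values of 1.74, 0.03 and -0.66 against 1.97 and 0.65. Single libraries moved it: omitting control replicate 1 or knockout replicate 3 gave -0.28 and -0.43, and omitting control replicate 2 or knockout replicate 1 gave -1.60 and -1.62. The glucocorticoid receptor gene Nr3c1 had one of 0.37, which was 0.13 after median centring.

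**Figure D5:**
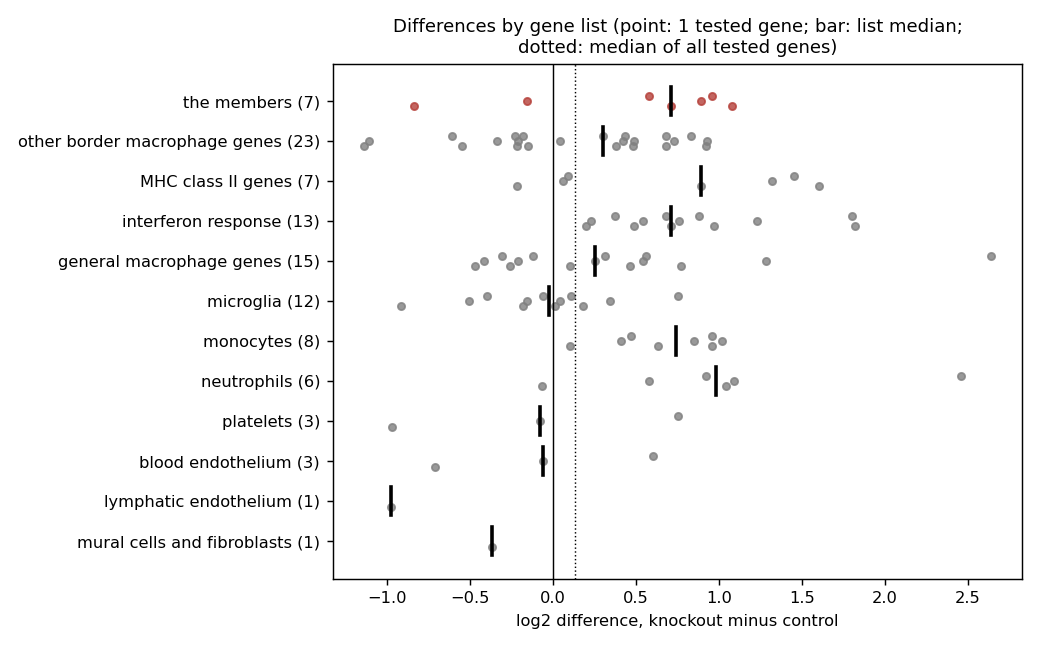
Log2 difference, knockout minus control, of each tested gene by list, with the number tested in brackets, list medians as black bars and the median of all tested genes, 0.13, dotted. The members (median 0.71) are spread from -0.84 to 1.08, and the microglia genes have a median of -0.03.

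Markers of other cells that a CD11b sort could hold are given beside these values. Microglia markers were higher in 6 of 12 tested and lower in 6 (median -0.03). Their mean value was 2.58, 2.56 and 2.29 in the libraries labelled knockout and 2.50 and 2.59 in the controls. Monocyte markers were higher in 8 of 8 tested (median 0.74), where 59.8% of all tested genes were. In 3 of the 8, Ccr2 included, both controls were recognised at the 0-read value, and the sign was fixed by the filter or by the rule for the control pair. Their mean was 1.12, 0.39 and 0.52 against -0.29 and 0.29. Ccr2, the chemokine receptor gene of classical monocytes, stood at 0.98, 0.97 and 0.47 against -0.14 and -0.16, while Ly6c2 was listed at 0 in all libraries. Neutrophil markers were higher in 5 of 6 (median 0.98), where 59.8% of all tested genes were. In 3 of the 6, S100a9 included, both controls were recognised at the 0-read value, which fixed the sign. The other 3 were 2 higher and 1 lower. The mean of the 6 was 1.37, 0.55 and 1.34 against 0.07 and 0.10. S100a9, a calprotectin subunit gene, stood at 2.29, 1.73 and 2.31 against -0.33 and -0.37, a log2 difference of 2.46 that was the highest of the 6. The part of monocytes and neutrophils in the member values was not tested. Dendritic cell markers were higher in 2 of 4 tested (median 0.27). Of 10 blood endothelium markers 6 lay at the 0-read value in all libraries, among them Cldn5, a tight junction gene of brain vessels, and 1 of 3 tested was higher. Mural cells and fibroblasts had 1 tested of 9 markers, with 3 at the 0-read value in all libraries and 5 in 4 of them. Choroid plexus epithelium had 2 tested of 7, with differences of 0.02 and 0.03. Lymphocytes had 1 tested of 11, neurons 3 of 7, astrocytes 5 of 6, the oligodendrocyte lineage 1 of 7 and red blood cells 1 of 5.

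After each tested member had been centred on its own mean, their mean profile was -0.05, 0.26 and 0.35 in knockout replicates 1 to 3 and -0.24 and -0.31 in the controls. The 5 other tested genes nearest to that profile, by root mean square distance over the 5 libraries, were A230070E04Rik (0.052), the autophagy gene Atg13 (0.053), Nudc (0.057), Lims2 (0.066) and the glutathione synthetase gene Gss (0.067). With 5 libraries and 9355 genes such likeness is a description only.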

How the data were processed

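Per the labels, 200 ng of RNA with an integrity number above 8 went into each polyA library, 40 bp reads were sequenced, and 274 M of 286 M reads (95%) aligned to GRCm38/mm10. TopHat2 2.0.13 and DESeq2 are named, without roles, in the submitters' processing notes. How reads were counted, and against which annotation, is not given in the sources used here. Values in the deposited table were taken as log2 expression after a regularized log transform, from their range (-4.12 to 7.69) and pattern. Such a transform shrinks differences of genes with few reads.

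Of 23420 genes, 6974 were exactly 0 in all libraries and 4699 more followed the fixed pattern of a gene without reads, recognised with a tolerance of 2% of its range and a span of at most 0.1157. Equal small counts can look alike. With 2 libraries there, the value is recognised for the control pair only. That rule asks for control replicate 1 to lie above control replicate 2 within that span, and for every knockout library to lie higher. It does not check the level, so genes with reads and close controls can be taken in. Counts at the value can thus be too low or too high. Genes at it in 4 or 5 libraries and 27 names turned into dates were left out, which left 9355 tested genes. The exact form of this filter was set with the values in view. limma 3.58.1 in R 4.3.3 was fitted on the deposited log2 values of all 5 libraries (~ group, eBayes), with Benjamini-Hochberg adjustment over all tested genes and a threshold of 0.05. Replicates are separate pools. Tested on simulated data with 9355 genes, limma recovered 0% of changes of 1 log2 unit, 11.5% of changes of 2 and 87% of changes of 3. The simulation changed 200 genes, drew normal noise with variances from limma's fitted distribution and had no 0-read value. Its rates therefore do not carry over to members with libraries at that value. Means are ± SD.

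The 27 lists, the members included, were chosen with earlier results of these data known, and some genes stand in 2 lists. Named genes are the members, Stat3, Cx3cr1, the 2 genes of smallest p in each border macrophage or pathway list, and the 5 nearest to the mean profile. Some, not all, of the first markers of cell type lists are named too. Of the listed genes 5 were found under an older name through RefSeq's table. Summaries used Python 3.11.15 with numpy 2.4.6 and pandas 2.3.3, and figures matplotlib 3.10.9.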

Additional observations from a re-analysis of the deposited data

How the results depend on the processing

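No alternative put a member past the threshold. Those run were leaving out each library, centring libraries on their median, quantile normalization, no filter on low values, eBayes with a trend or robust, and the replicate block. Over these the limma adjusted p of members ran from 0.39 to 0.999. The median member difference of 0.71 was 0.46 after median centring and 0.49 after quantile normalization. It ran from 0.56 to 0.93 with 1 library left out, highest without knockout replicate 2. Among all genes, 1 passed without the filter (Sord, difference -2.02, limma adjusted p = 0.00853 among 16423 genes, within a range from 0.00853 to 0.875), and 0 otherwise. Of 44 genes followed through the alternatives (the tested members and the named genes whose differences or levels are discussed), 40 kept their direction throughout. Most of the 44 were picked in these same data for a small p or for likeness to the member profile. In many, both controls were recognised at the 0-read value and the direction could hardly turn, so that count does not measure robustness. With 1 library left out, Mrc1 ran from -0.57 to 0.25 (positive also at 0.08, when knockout replicate 1 was omitted) and Stat3 from -0.10 to 0.35 (-0.02 when control replicate 1 was omitted). Median centring gave -0.08 for Stat3 and quantile normalization -0.02. Itgam ran from -0.23 to 0.08 with 1 library left out and was 0.03 after quantile normalization and 0.08 with the replicate block. Stab1 ran from -0.03 to 0.88. For these shifts the cause was not tested. Replicate numbers pair pools only by number: deviations of same-numbered libraries correlated at 0.00 and -0.07 across genes. With the replicate block the median member difference was 0.56, 5 members were higher and 0 passed. That fit gives the differences found without knockout replicate 3, whose number the controls lack. Depth is unknown, so differences of the members with few reads carry no counting error.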
